A study of Mus musculus with 6 samples.

Results

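The genes that carry iron into, through and out of the colonic epithelial cell were examined in RNA-seq of mouse colon epithelium, isolated with EDTA and DTT. They are 10 of the 52550 genes listed for each library, and they were chosen by name for their role, with earlier results of these data known: *Tfrc*, *Slc11a2* and *Cybrd1* for uptake, *Fth1* and *Ftl1* for storage, *Slc40a1* and *Heph* for export, *Hmox1* for release of iron from heme, and *Hfe* and *Ireb2* for regulation. All 10 were found by symbol.

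The libraries came from 3 Zfp90fl/fl and 3 Zfp90ΔIEC samples of male C57BL/6 mice, given in the labels as 6 to 8 weeks old. The study's methods give 8 weeks as the age when treatment began, so the mice were older than that when the tissue was taken. All of them had received azoxymethane (AOM, a carcinogen) at 10 mg/kg and 3 cycles of dextran sodium sulfate (DSS, which injures the colon lining) at 2% in drinking water, and the tissue was taken on day 80. These doses are those of the labels, and the study's methods give another DSS concentration. Both groups carry the floxed *Zfp90* allele and both were treated, so that no untreated level of any iron gene was measured here. In Zfp90ΔIEC mice the gene, which encodes a zinc finger protein, is deleted by a Cre under the Villin promoter, which is active in intestinal epithelium and therefore not only in tumor cells. The study describes separate housing of the genotypes once weaned and the treated males as mono-housed, so cage and genotype cannot be told apart. The genotype field of Zfp90ΔIEC replicates 2 and 3 carries another gene number (Zfp91 and Zfp92), and these libraries were grouped by their titles, which call them conditional knockouts as that of replicate 1 does.

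Levels are given as FPKM, a fragment count divided by transcript length and by the number of fragments sequenced, which allows genes to be set side by side. The files give no depth. The step by which low values rise puts it near 25.7 to 28.7 M fragments per library, an estimate only, since 48.0% to 51.4% of the values examined lay within 0.1 of a whole step. *Zfp90* itself was at 0.49 to 0.63 FPKM in the Zfp90fl/fl libraries and at 0.0846 to 0.195 FPKM in the Zfp90ΔIEC libraries, with no overlap. Epithelial markers such as *Epcam* (554 to 608 FPKM over the 6 libraries) were abundant, and the summed markers of endothelium and of fibroblasts stayed under 1 FPKM in every library.

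A colonocyte takes up iron from the blood through the transferrin receptor and, at its luminal face, as ferrous iron through a divalent metal transporter. Iron that is not used is held in ferritin, a shell of H and L subunits, or leaves through ferroportin, the only known cellular iron exporter, with the help of a copper ferroxidase. Many of these mRNAs are read by iron regulatory proteins, which bind a short hairpin, the iron-responsive element. Bound in the 5′ untranslated region (UTR) it blocks translation, and bound in the 3′ UTR of the transferrin receptor mRNA it protects that mRNA from decay.

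The hairpins that a search found in the members are shown because they are the sites through which these proteins are known to act. The search of the protein-coding transcripts of GENCODE M21 (GRCm38) on the transcript strand looked for an unpaired C, 5 paired bases, the loop CAGTGN and the 5 bases that close the stem, with G-U pairs allowed. It found 7 matches in 4 of the 10 genes, against at least 1 match in 294 of all 21901 protein-coding genes (1.34%). In each line the 6 bases of the loop are in capitals, and the 5 bases of the upper stem separate the unpaired C from it.
*Tfrc* 3′ UTR, match 1, chr16:32631220-32631246, plus strand: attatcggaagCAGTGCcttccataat
*Tfrc* 3′ UTR, match 2, chr16:32631599-32631625, plus strand: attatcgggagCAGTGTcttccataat
*Tfrc* 3′ UTR, match 3, chr16:32631664-32631690, plus strand: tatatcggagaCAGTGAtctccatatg
*Tfrc* 3′ UTR, match 4, chr16:32631711-32631737, plus strand: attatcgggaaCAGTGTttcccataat
*Fth1* 5′ UTR, chr19:9982733-9982759, plus strand: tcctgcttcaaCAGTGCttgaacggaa
*Ftl1* 5′ UTR, chr7:45459780-45459806, minus strand: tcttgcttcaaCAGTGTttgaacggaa
*Slc40a1* 5′ UTR, chr1:45925466-45925492, minus strand: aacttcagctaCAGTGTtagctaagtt

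The *Fth1* and *Ftl1* elements share the paired bases next to the loop, ttcaa before it and ttgaa after it, and the *Slc40a1* element has a stem of its own. The 4 *Tfrc* matches, numbered here along the gene, all lie in the 3′ UTR, within the last exon. The pattern searched did not occur in the transcripts of *Slc11a2*, *Cybrd1*, *Heph*, *Hmox1*, *Hfe* or *Ireb2* held in this annotation. The search allowed no unpaired base within the upper stem and no other loop. A hairpin of another form would be missed, so these genes cannot be said to lack an iron-responsive element.

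The genotypes were compared to ask whether iron handling genes differ between treated epithelium with and without *Zfp90*. Of the 10 genes, 9 reached the level required for a test (at least 1 FPKM in at least 3 libraries) and 0 passed it at an adjusted p under 0.05 (limma on log2(FPKM + 1), Benjamini-Hochberg over all genes tested). Over all 11564 genes tested the share that passed was 0.199%, 23 genes. The member nearest to the threshold was *Slc40a1*, the exporter, with 1.74 times the mean FPKM in Zfp90fl/fl libraries, followed by *Fth1*, ferritin H, whose mean was 1.29 times as high in Zfp90ΔIEC libraries. At an unadjusted p under 0.05 there were 2 of the 9, these same genes, beside 14.6% of all genes tested. The values of the genotypes did not overlap for 3 of the 9, *Slc40a1*, *Fth1* and *Slc11a2*, beside 21.3% of all genes tested. The median log2 fold change (Zfp90ΔIEC against Zfp90fl/fl) was -0.025 over the 9 members and -0.023 over all genes tested. In bulk epithelium, fewer cells of a type and less RNA per cell cannot be told apart, and this holds for each difference that follows.

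**Figure D1:**
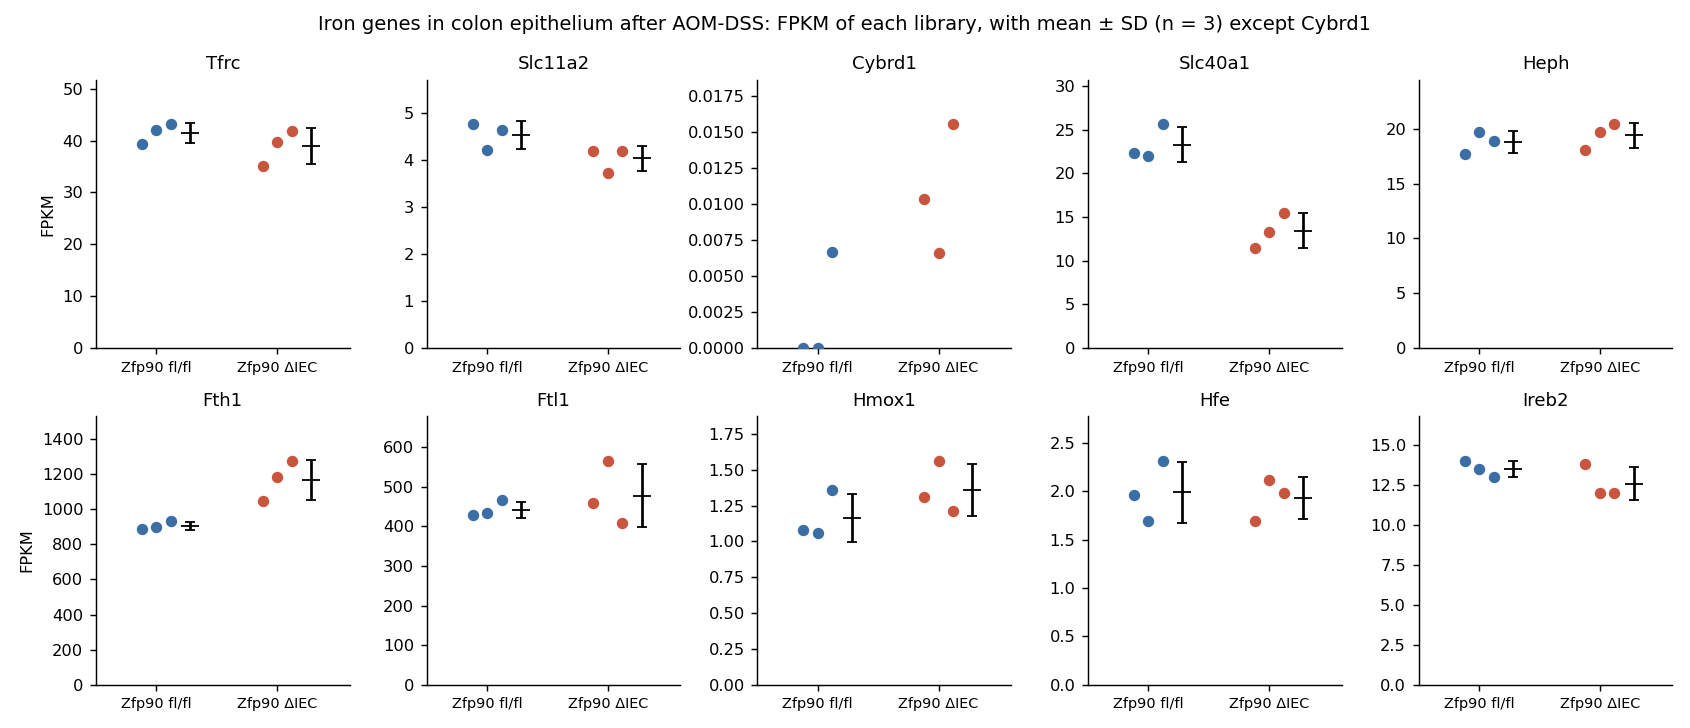
Level of each of the 10 iron genes (vertical axis, FPKM from 0) in the 3 Zfp90fl/fl libraries (blue) and the 3 Zfp90ΔIEC libraries (red), with the mean and SD beside the points except for *Cybrd1*, which is listed at 0 in 2 libraries. The points of *Slc40a1* and *Fth1* stand apart by genotype, those of *Slc11a2* by a margin that is barely visible, and those of the other 7 genes overlap.

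The levels of the members spanned a wide range, and their order over the 6 libraries was *Fth1*, *Ftl1*, *Tfrc*, *Heph*, *Slc40a1*, *Ireb2*, *Slc11a2*, *Hfe*, *Hmox1* and *Cybrd1*. Ferritin was among the most abundant mRNAs of this epithelium, *Fth1* being the 29th and *Ftl1* the 73rd of the 52550 listed genes by mean FPKM. *Tfrc* ranked 1086th. Neighbours in the order had separate ranges over all 6 libraries except for *Slc40a1* (11.5 to 25.6 FPKM), whose range overlapped that of *Heph* (17.7 to 20.4 FPKM) above it and that of *Ireb2* (12 to 14 FPKM) below it. *Slc40a1* had the widest range among the 9 genes tested, 77.1% of its mean, and *Heph* the narrowest, 13.9%.

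None of the uptake genes passed the test. *Tfrc*, the receptor that internalizes transferrin-bound iron and is used by dividing cells in particular, was at 39.3, 42.1 and 43.1 FPKM in Zfp90fl/fl replicates 1 to 3 and at 35.1, 39.8 and 41.8 FPKM in Zfp90ΔIEC replicates 1 to 3. The groups overlapped, with only Zfp90ΔIEC replicate 1 below the Zfp90fl/fl range. The log2 fold change was -0.09 (SE 0.0783, 95% interval -0.28 to 0.09, adjusted p = 0.633 by limma).

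*Slc11a2*, the proton-coupled transporter that moves ferrous iron across the apical membrane and out of endosomes, was at 4.76, 4.21 and 4.64 FPKM in Zfp90fl/fl libraries and at 4.19, 3.72 and 4.20 FPKM in Zfp90ΔIEC libraries. The lowest Zfp90fl/fl value lay just above the highest Zfp90ΔIEC value. The log2 fold change was -0.14 (SE 0.0713, 95% interval -0.31 to 0.03, adjusted p = 0.434 by limma).

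*Cybrd1*, the ferrireductase of the duodenal brush border that prepares dietary iron for uptake, was at the limit of detection. It was listed at 0, 0 and 0.00664 FPKM in Zfp90fl/fl libraries and at 0.0103, 0.00662 and 0.0155 FPKM in Zfp90ΔIEC libraries. On its single annotated transcript of 5339 bases these values correspond to between 0 and about 2.3 fragments per library. Values this low allow no comparison, and no fold change is given.

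Ferritin H differed in the other direction from the exporter. *Fth1*, the subunit with the ferroxidase center that loads iron into ferritin, was at 888, 899 and 931 FPKM in Zfp90fl/fl libraries and at 1048, 1182 and 1273 FPKM in Zfp90ΔIEC libraries. Every Zfp90ΔIEC value was above every Zfp90fl/fl value, and the Zfp90ΔIEC values were also more spread (1167 ± 113 against 906 ± 22.4 FPKM, mean ± SD, n = 3). The log2 fold change was 0.36 (SE 0.0798, 95% interval 0.17 to 0.55), with an adjusted p of 0.122 by limma, rank 264 of 11564 by p.

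*Ftl1*, the subunit that favors mineralization of the stored iron, was at 428, 433 and 466 FPKM in Zfp90fl/fl libraries and at 460, 565 and 409 FPKM in Zfp90ΔIEC libraries. Zfp90ΔIEC replicates 2 and 3 were the highest and the lowest of all 6, and the groups overlapped. The log2 fold change was 0.10 (SE 0.117, adjusted p = 0.741 by limma). Reads of *Ftl1* can be split with its near-identical pseudogenes *Ftl1-ps1* and *Ftl2-ps*, so its level is uncertain. The pseudogenes together were listed at 27.2 to 50.2 FPKM in Zfp90fl/fl and at 28.4 to 33.9 FPKM in Zfp90ΔIEC libraries, and adding them to *Ftl1* gave 459, 460 and 516 against 490, 599 and 438 FPKM, again with overlap.

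The mRNAs of both ferritin subunits, without the pseudogenes, summed to 1316, 1332 and 1398 FPKM in Zfp90fl/fl libraries and to 1508, 1747 and 1682 FPKM in Zfp90ΔIEC libraries. *Fth1* made up 67.5%, 67.5% and 66.6% of that mRNA sum in Zfp90fl/fl libraries, and the share of the proteins was not measured. In Zfp90ΔIEC libraries its share was 69.5%, 67.7% and 75.7%. The groups did not overlap, but the share of Zfp90ΔIEC replicate 2 was almost that of Zfp90fl/fl replicates 1 and 2, and the mean difference of 3.73 percentage points fell to 1.36 without Zfp90ΔIEC replicate 3.

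The ratio of *Tfrc* to *Fth1* sets an uptake mRNA against a storage mRNA within a library and does not move with the scaling of that library. Its log2 value was -4.50, -4.41 and -4.43 in Zfp90fl/fl libraries and -4.90, -4.89 and -4.93 in Zfp90ΔIEC libraries. The ratio varied less within a genotype (SD 0.0444 and 0.0195, n = 3) than the mean difference of -0.458 between genotypes, most of which came from *Fth1*. No test was run on ratios, which are scores over members and are given as a description.

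**Figure D2:**
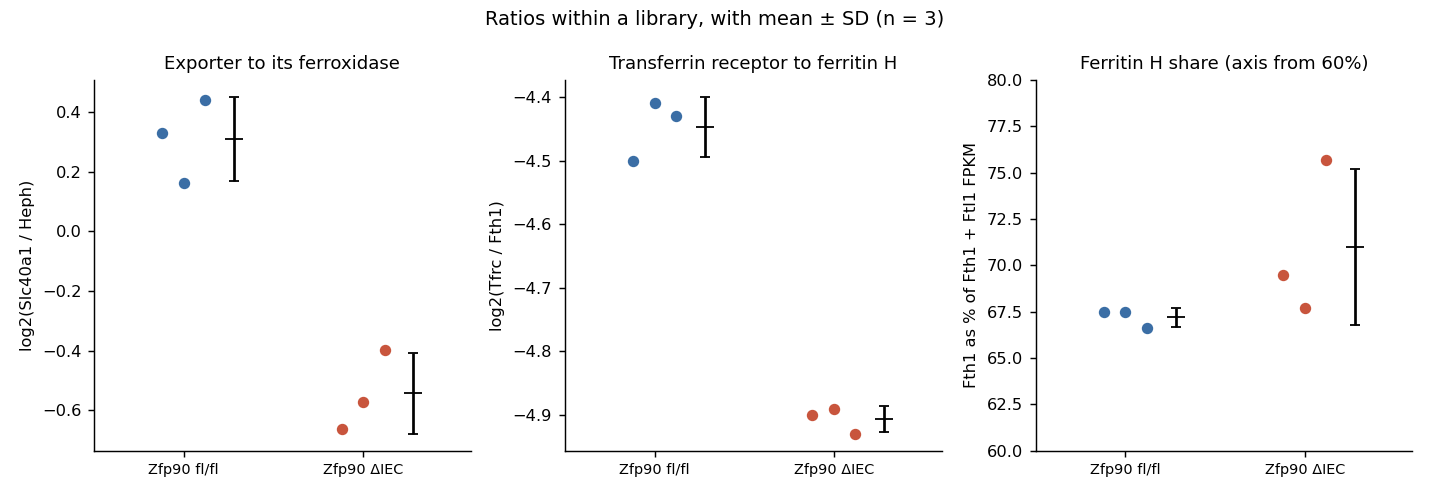
Ratios within each library for Zfp90fl/fl (blue) and Zfp90ΔIEC (red), with mean and SD of 3 libraries: log2 of *Slc40a1* over *Heph*, log2 of *Tfrc* over *Fth1*, and *Fth1* as a percentage of *Fth1* plus *Ftl1* FPKM on an axis that does not start at 0. The first ratio, which was not planned, is higher in each Zfp90fl/fl library than in each Zfp90ΔIEC library. The second is separated by a mean difference of -0.458, and in the third Zfp90ΔIEC replicate 3 stands alone at 75.7%.

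The largest difference among the members tested was that of the exporter, and it was not called. *Slc40a1*, which encodes ferroportin at the basolateral membrane, was at 22.3, 22 and 25.6 FPKM in Zfp90fl/fl libraries and at 11.5, 13.3 and 15.5 FPKM in Zfp90ΔIEC libraries. Every Zfp90ΔIEC value was below every Zfp90fl/fl value, with a gap of several FPKM between the groups (23.3 ± 2.01 against 13.4 ± 2.03 FPKM, mean ± SD, n = 3). The log2 fold change was -0.76 (SE 0.113, 95% interval -1.03 to -0.49), and its adjusted p of 0.0664 by limma missed the threshold, at rank 45 of 11564 by p. A fit that takes the replicate number as a block gave the same fold change with an adjusted p of 0.0403 by limma. It was the only 1 of 12 refits with a call, and the adjusted p reached 0.434 in another. The labels number the replicates but name no pairing, and same-numbered libraries deviated together only weakly.

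*Heph*, hephaestin, the membrane ferroxidase that oxidizes iron as it leaves, was at 17.7, 19.7 and 18.9 FPKM in Zfp90fl/fl libraries and at 18.1, 19.7 and 20.4 FPKM in Zfp90ΔIEC libraries. These groups overlapped almost completely, with a log2 fold change of 0.05 (SE 0.0676, 95% interval -0.11 to 0.21, adjusted p = 0.793 by limma). The ratio of the exporter to its oxidase was not among those planned, and its difference between genotypes came mostly from *Slc40a1*. The log2 ratio of *Slc40a1* to *Heph* was 0.33, 0.16 and 0.44 in Zfp90fl/fl libraries and -0.66, -0.57 and -0.40 in Zfp90ΔIEC libraries.

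*Hmox1*, heme oxygenase 1, which frees iron from heme and is induced by heme and oxidative stress, was low. It was at 1.08, 1.06 and 1.36 FPKM in Zfp90fl/fl libraries and at 1.31, 1.56 and 1.21 FPKM in Zfp90ΔIEC libraries. The groups overlapped, and the log2 fold change was 0.12 (SE 0.0935, 95% interval -0.10 to 0.35, adjusted p = 0.592 by limma).

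Both regulators overlapped between the genotypes. *Hfe*, an MHC class I-like protein that binds the transferrin receptor and whose loss causes iron overload, was at 1.96, 1.69 and 2.31 FPKM in Zfp90fl/fl libraries and at 1.69, 2.12 and 1.98 FPKM in Zfp90ΔIEC libraries. Its log2 fold change was -0.02 (SE 0.101, 95% interval -0.26 to 0.21, adjusted p = 0.926 by limma).

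*Ireb2*, iron regulatory protein 2, one of the proteins that bind the hairpins shown above, was at 14, 13.5 and 13 FPKM in Zfp90fl/fl libraries and at 13.8, 12 and 12 FPKM in Zfp90ΔIEC libraries. Zfp90ΔIEC replicates 2 and 3 were the lowest and replicate 1 lay within the Zfp90fl/fl range. The log2 fold change was -0.09 (SE 0.0718, 95% interval -0.26 to 0.08, adjusted p = 0.595 by limma).

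**Figure D3:**
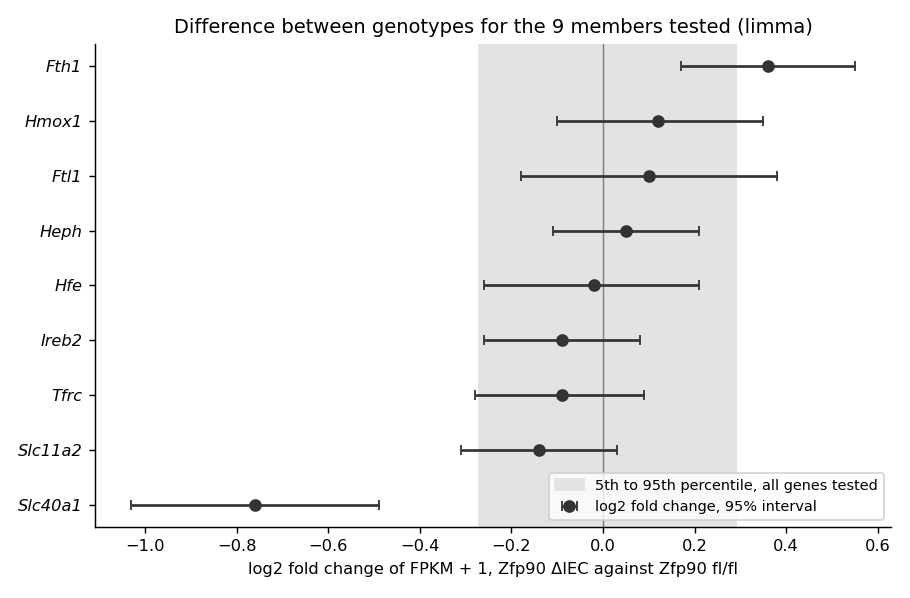
Log2 fold change of FPKM + 1 (horizontal axis, Zfp90ΔIEC against Zfp90fl/fl) with its 95% interval for the 9 iron genes tested by limma, over a grey band from the 5th to the 95th percentile of all genes tested (-0.27 to 0.29). *Slc40a1* at -0.76 lies below the band and *Fth1* at 0.36 above it, and the intervals of the other 7 genes include 0.

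The genes with a match in the search did not share a direction. *Slc40a1*, *Fth1* and *Ftl1* have a match in the 5′ UTR and had log2 fold changes of -0.76, 0.36 and 0.10, while *Tfrc*, with 4 matches in the 3′ UTR, was at -0.09. The values are mRNA levels, and translation was not measured in these libraries.

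Other genes of the pathway were examined in 5 lists of 93 genes, of which 77 were tested. Of these 1 was called, the ferrireductase *Steap4*, which met the filter only through the Zfp90fl/fl libraries. Of the others 0 passed in either direction. The background was 0.13% of all genes tested for a call in that direction. The values of the genotypes did not overlap for 10 of the 77, beside 21.3% of all genes tested. At an unadjusted p under 0.05 by limma there were 6 of the 77, beside 14.6% of all genes tested. The median log2 fold change of the 77 genes was 0.003, beside -0.023 over all genes tested, with values from -0.79 to 0.30.

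In the transport list 14 of 20 genes were tested and 1 passed, in the direction of lower levels in Zfp90ΔIEC libraries. *Steap4*, a metalloreductase that is also known as an inflammation-responsive gene, was at 1.10, 1.29 and 1.31 FPKM in Zfp90fl/fl libraries and at 0.192, 0.365 and 0.363 FPKM in Zfp90ΔIEC libraries. It fell in Zfp90ΔIEC libraries by 0.78 on the log2(FPKM + 1) scale (SE 0.0932, adjusted p = 0.0434 by limma), a scale that understates the change of so low a gene, and the mean was 4.03 times as high in Zfp90fl/fl libraries. *Steap4* entered the test only through its Zfp90fl/fl values, since every Zfp90ΔIEC value was under 1 FPKM. The call is therefore not independent of the filter, and without the filter the adjusted p was 0.279 by limma. The call was also lost when any 1 of the 6 libraries was left out (adjusted p from 0.0641 to 0.153) and with the replicate block (0.0504). *Trf*, transferrin, the carrier of iron in plasma, was at 6.69, 8.23 and 6.81 against 4.30, 3.05 and 3.98 FPKM, without overlap. Its log2 fold change was -0.79 (SE 0.121) and its adjusted p was 0.0664 by limma, so it missed the threshold.

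The membrane proteins *Steap3*, *Slc39a14* and *Slc25a37* overlapped between the genotypes. *Steap3*, the endosomal ferrireductase that works with the transferrin receptor, was at 6.77 ± 0.450 FPKM in Zfp90fl/fl and 6.90 ± 0.408 FPKM in Zfp90ΔIEC libraries (mean ± SD, n = 3). *Slc39a14*, which imports iron that is not bound to transferrin, was at 3.24 ± 0.304 against 3.77 ± 0.627 FPKM. *Slc25a37*, the mitochondrial iron importer, was at 6.70 ± 0.954 against 6.44 ± 1.01 FPKM. The adjusted p by limma was between 0.532 and 0.899 for these 3 genes.

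Those that handle iron inside the cell were likewise not called. The iron chaperone genes *Pcbp1* and *Pcbp2* were at 81.2 ± 2.77 against 83.0 ± 4.82 FPKM and at 87.2 ± 3.63 against 80.1 ± 5.44 FPKM. *Ncoa4*, the receptor that delivers ferritin for degradation, was at 19.0, 17.5 and 26.4 against 17.6, 17.1 and 17.7 FPKM, with Zfp90fl/fl replicate 3 above the rest. *Lcn2*, a protein that captures bacterial siderophores, was below the level for a test, at 0.0416, 0.201 and 0.135 FPKM against 0, 0.0113 and 0 FPKM.

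In the regulation list 13 of 18 genes were tested and 0 passed, with a median log2 fold change of -0.05. *Aco1*, iron regulatory protein 1, was at 28, 30.6 and 29.9 against 25.2, 26.8 and 26.5 FPKM, without overlap (log2 fold change -0.17, SE 0.0584, adjusted p = 0.272 by limma). *Fbxl5*, which targets iron regulatory proteins for degradation when iron is plentiful, was at 8.04 ± 0.309 against 7.57 ± 0.781 FPKM. *Hamp*, hepcidin, the liver hormone that removes ferroportin from the membrane, was listed at 0.0949 FPKM in Zfp90fl/fl replicate 1 and at 0 in the other 5 libraries.

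Transcription factors known to act on iron genes gave no call. *Epas1*, the hypoxia-inducible factor that drives intestinal iron transporters, was at 26.7 ± 1.69 against 25.1 ± 1.33 FPKM. *Nfe2l2*, which encodes the antioxidant factor NRF2, was at 78.9 ± 3.40 against 86.3 ± 7.95 FPKM. *Bach1*, a heme-sensing repressor, was at 10.3, 8.71 and 9.26 against 8.38, 7.83 and 8.66 FPKM, without overlap and with an adjusted p of 0.38 by limma. Of 10 NRF2 target genes 9 were tested and 0 passed, among them *Nqo1*, a quinone reductase, at 45.4, 43.9 and 44.4 against 32.7, 52.9 and 41.4 FPKM. The lowest fold change in that list was that of *Srxn1*, sulfiredoxin, at 29.4, 32 and 41.1 against 28.7, 14.6 and 21.3 FPKM (log2 fold change -0.68, adjusted p = 0.266 by limma).

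Heme and iron-sulfur genes held no call either, with 19 of 23 and 22 of 22 genes tested. *Alas1*, the first enzyme of heme synthesis, was at 18 ± 1.47 against 19.9 ± 3.29 FPKM, and *Fech*, the last one, at 17.6 ± 0.407 against 18.1 ± 0.927 FPKM. *Slc46a1*, a folate transporter also studied for heme uptake, was at 3.62, 3.31 and 3.37 against 2.36, 1.85 and 3.6 FPKM. *Flvcr1*, known as a heme exporter, was at 2.87, 0.844 and 3.27 against 3.13, 2.74 and 2.70 FPKM, Zfp90fl/fl replicate 2 being far below the rest. *Hp*, haptoglobin, was under the level for a test at 0.0869 to 0.362 FPKM. *Iscu*, the scaffold on which iron-sulfur clusters are built, was at 8.64 ± 0.686 against 9.02 ± 1.00 FPKM.

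**Figure D4:**
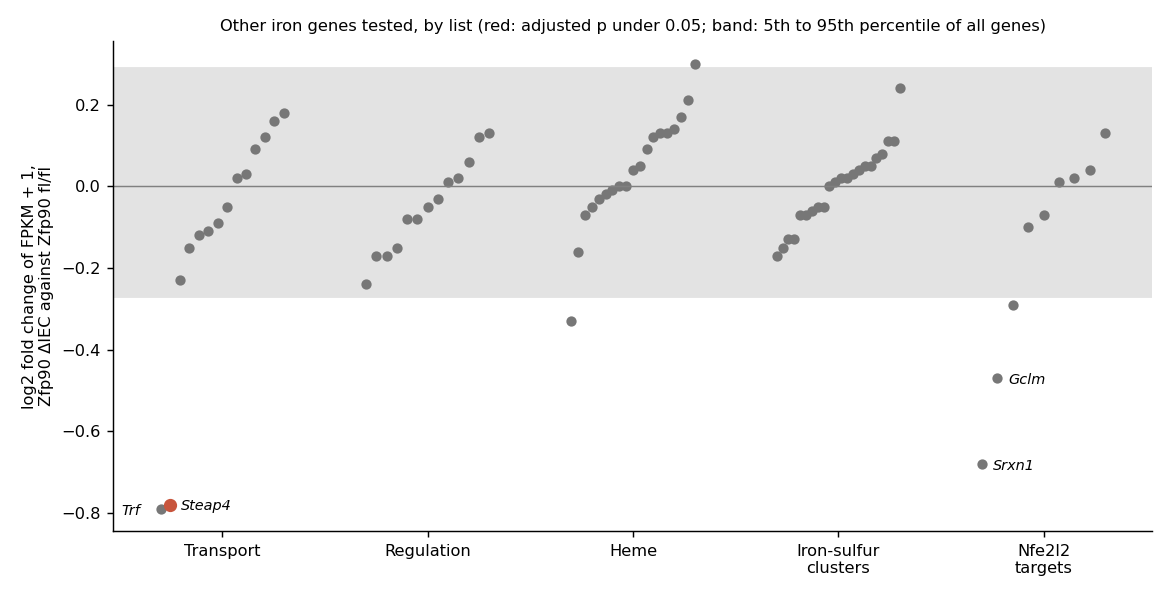
Log2 fold change of FPKM + 1 (vertical axis, Zfp90ΔIEC against Zfp90fl/fl) of the 77 other iron genes tested, each a point in its list, over a grey band from the 5th to the 95th percentile of all genes tested (-0.27 to 0.29). Most points lie within the band, *Steap4* (red, adjusted p under 0.05) and *Trf* lie near -0.8, and *Srxn1* and *Gclm* of the NRF2 targets are named because they lie beyond -0.4.

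The epithelial preparations held traces of other cells, and some marker lists differed by genotype. Ferroportin is known from macrophages as well as from epithelium. The 10 macrophage markers summed to 28.8 to 32.8 FPKM in Zfp90fl/fl and to 15.9 to 17.9 FPKM in Zfp90ΔIEC libraries, 8 of 10 having a lower mean in Zfp90ΔIEC libraries. *Cd163* and *Vsig4* were at 0 in all 6 libraries, and *Adgre1* was at most 0.186 FPKM.

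Most of the macrophage sum was *Cd14*, which epithelial cells can also express. It was at 24.5, 27.3 and 27.1 against 14.4, 12.9 and 15.5 FPKM and was the 1 marker called of the 3 tested (log2 fold change -0.84, SE 0.0807, adjusted p = 0.0219 by limma). Without *Cd14*, a choice made after its level was seen, the other 9 markers summed to 4.26 to 5.50 FPKM in Zfp90fl/fl and 1.59 to 3 FPKM in Zfp90ΔIEC libraries (mean in Zfp90ΔIEC 0.496 times that in Zfp90fl/fl, beside 0.535 times for all 10 and 0.575 times for *Slc40a1*). The part of these cells in the differences of *Slc40a1*, *Trf* and *Steap4* was not tested. The neutrophil list summed to 25.2 to 47.2 against 21.9 to 33.0 FPKM, nearly all of it *Ly6g*, and all 6 of its markers had a lower mean in Zfp90ΔIEC libraries. The other 5, again separated after their levels were seen, summed to 1.23 to 2.47 against 0 to 0.018 FPKM, with *S100a8* and *S100a9* at 0 in every Zfp90ΔIEC library. In those libraries *Ly6g* was still at 21.9 to 32.9 FPKM, and which cells it came from was not tested. The lymphocyte list summed to 1.77 to 3.43 against 1.12 to 1.66 FPKM, while the erythroid list was at 5.70 to 9.52 against 7.99 to 10.8 FPKM.

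Proliferation markers were higher in the same libraries as *Fth1*. The 8 markers summed to 105 to 114 FPKM in Zfp90fl/fl and 132 to 147 FPKM in Zfp90ΔIEC libraries, all 8 having a higher mean in Zfp90ΔIEC libraries, and *Mki67*, at 21.8 to 22.6 against 29.1 to 30.6 FPKM, was the 1 called (adjusted p = 0.0478 by limma). The 10 epithelial markers summed to 10435 to 12836 FPKM in Zfp90fl/fl and 13311 to 17083 FPKM in Zfp90ΔIEC libraries, with *Car1*, a carbonic anhydrase of surface colonocytes, at 4033 to 5628 against 6349 to 10059 FPKM. Without *Car1* the other 9 summed to 6402 to 7208 against 6963 to 7024 FPKM, 4 of the 10 markers had a lower mean in Zfp90ΔIEC libraries, and 0 of the 10 were called. The part of proliferating cells in the difference of *Fth1* was not tested. *Tfrc* overlapped between the genotypes as given above, and whether its level follows proliferation here was not tested.

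**Figure D5:**
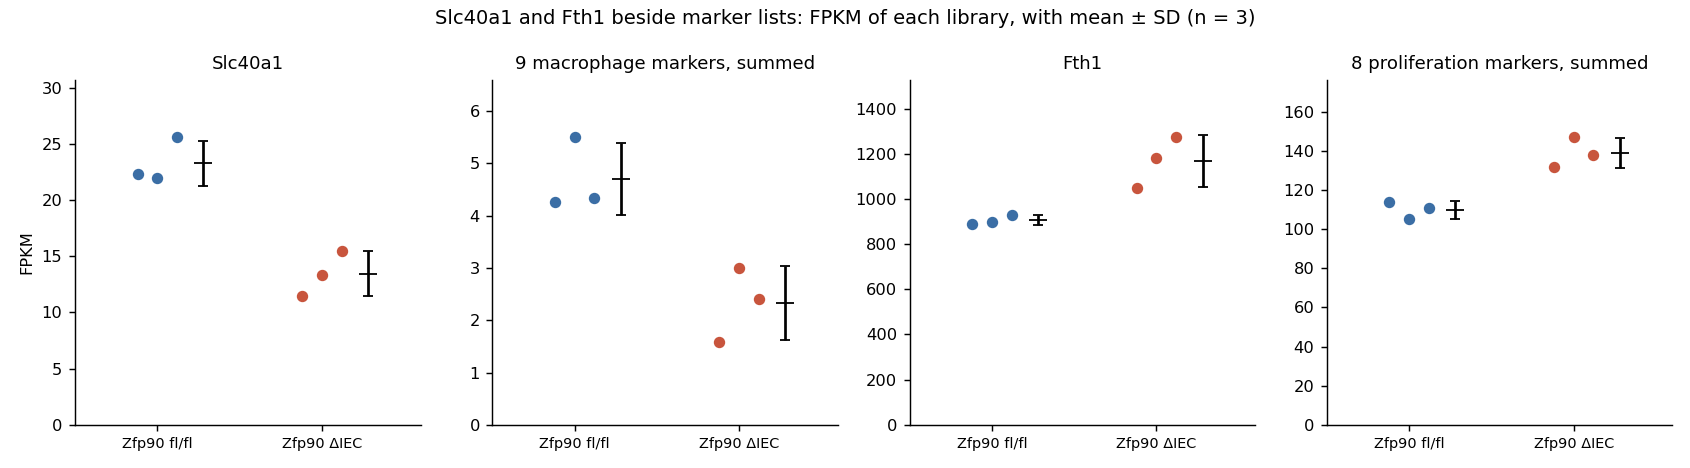
FPKM (vertical axes from 0) of *Slc40a1*, of 9 macrophage markers summed without *Cd14*, of *Fth1*, and of 8 proliferation markers summed, in the 3 Zfp90fl/fl libraries (blue) and the 3 Zfp90ΔIEC libraries (red), with mean and SD. *Slc40a1* and the macrophage sum are lower in each Zfp90ΔIEC library than in each Zfp90fl/fl library, and the proliferation sum is higher in each Zfp90ΔIEC library than in each Zfp90fl/fl library, as *Fth1* is.

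The genes whose pattern over the 6 libraries was most like that of a member were sought among 6661 genes with a mean of at least 5 FPKM, by the mean absolute difference of centered log2(FPKM + 1) values. For *Tfrc* they were *Dedd2* (0.0104) and *Rnf14* (0.0166). *Fth1* was closest to *Ect2* (0.0229) and *Kif11* (0.0258), genes of cytokinesis and of the mitotic spindle, with *Ect2* at 7.14 ± 0.274 against 9.36 ± 0.958 FPKM. *Slc40a1* was closest to *Stom* (0.0558), which encodes the membrane protein stomatin and was at 17.4 ± 1.95 against 10.8 ± 2.22 FPKM, and to *Casp4* (0.0827), an inflammatory caspase, at 11.1 ± 0.570 against 6.91 ± 1.28 FPKM. The adjusted p by limma for these 4 genes was between 0.0873 and 0.134, so that none of them passed. Genes picked by likeness over the same 6 libraries share the difference of the member by construction. Whether their known roles bear on *Fth1* or *Slc40a1* was not tested.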

How the data were processed

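The authors deposited 1 file of FPKM per gene and library, and the unit follows from the methods and the values, since the files have no unit in their header. The methods name TopHat and Cuffdiff with a human genome, whereas the submitters' processing notes name STAR 2.5, Cuffnorm, DESeq 1.22.1 and mm9, and the files list mouse Ensembl genes, so the path from reads to the deposited FPKM values cannot be settled. Libraries were made with a strand-specific kit, but the counting setting is not given in the sources used here. Symbols came from GENCODE M21 and covered 52403 of 52550 identifiers.

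Values were taken as log2(FPKM + 1), with a pseudocount of 1. Genes that reached 1 FPKM in 3 or more libraries were fitted with limma 3.58.1 (intensity trend, R 4.3.3), with genotype as the only term, over all 6 libraries. Genes below this level were read from a fit without the filter. FPKM is not a count, so no count model was used. Tables and plots were made with Python 3.11.15, and the fit was tested on simulated data. The study gives 3 per group for its RNA-seq of these mice, and the labels do not name the animal behind a library, so p-values measure the spread between these libraries. At the estimated depth a value near 0 rests on a few fragments.

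The members and lists were chosen with earlier results of these data known. The named genes are all 10 members, 22 genes of fixed roles in the 5 lists, any other list gene past the threshold, and the 2 nearest genes of *Tfrc*, *Fth1* and *Slc40a1*. *Srxn1*, *Gclm*, *Snx3* and *Fdx2* were named after their values were seen. The ratio of *Slc40a1* to *Heph* was not planned either. Alternatives were another pseudocount, no filter, 2 other scalings, the replicate number as a block, limma without the trend, a threshold of 0.1, and each library left out.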

Additional observations from a re-analysis of the deposited data

How the results depend on the processing

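Over all genes, 23 were called. A pseudocount of 0.1 gave 13 calls, no filter 8, a threshold of 0.1 for the adjusted p 176, and leaving out 1 library 10 to 21, the lowest without Zfp90fl/fl replicate 2. Labels number the replicates 1 to 3 in both genotypes, but same-numbered libraries deviated together only weakly (correlations 0.194, 0.11 and 0.0782), although each correlated best with its own number, which is a hint from the data and not the design. A replicate block in the fit gave 47 calls, 18 of them among the 23, the members had 1 call (*Slc40a1*) and the transport list 0. The threshold of 0.1, added for the lists after seeing the data, gave 1 call among the members (*Slc40a1*) and 2 in the transport list (*Steap4* and *Trf*). The members had 0 calls under the other 11 settings, including each library left out (0 to 0). The 1 call of the transport list, *Steap4*, became 0 with the pseudocount of 0.1, without the filter and without any 1 library (0 to 0), and stayed under quantile normalization, median ratio scaling and limma without the trend. The cause was not tested. The regulation, heme, iron-sulfur and NRF2 lists had 0 calls under all 13 settings. *Slc40a1* kept its direction in the 12 refits, at -0.86 to -0.66 with adjusted p from 0.0403 to 0.434 by limma, and *Fth1* at 0.29 to 0.44 with 0.0561 to 0.569. *Ftl1* changed sign in 1 setting and *Hfe* in 2, none of them called. The difference in summed macrophage markers was -14.4 FPKM and, without *Cd14*, -2.37 FPKM of a smaller sum (ratio of means 0.535 and 0.496), and that in epithelial markers was 3325 FPKM and, without *Car1*, 160 FPKM, both chosen after seeing the data. The neutrophil difference, nearly all of whose sum is *Ly6g*, changed sign without Zfp90fl/fl replicate 3 (from -6.06 to 1.09 FPKM). Without *Ly6g*, also a choice made after seeing the data, the neutrophil difference over all 6 libraries was -1.76 FPKM. The scalings moved the median of all genes from -0.023 to at most -0.003. Without counts, precision for genes under 1 FPKM is limited by depth.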

Other observations

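Among the 86 iron genes tested, 8 (9.3%) had a highest value over 2 times the lowest of the 6 libraries, beside 8.51% of all genes tested. In *Snx3*, *Flvcr1*, *Gclm* and *Fdx2*, all among these, the libraries that stood apart did not follow the genotype. *Snx3*, a sorting nexin that recycles the transferrin receptor, was at 29.9 FPKM in Zfp90fl/fl replicate 1 and 32.0 FPKM in Zfp90ΔIEC replicate 2, and at 57.9 to 65.2 FPKM in the other 4 libraries. *Flvcr1* was at 0.844 FPKM in Zfp90fl/fl replicate 2 and at 2.70 to 3.27 FPKM elsewhere. *Gclm*, the regulatory subunit of the enzyme that starts glutathione synthesis, was at 2.98 FPKM in Zfp90ΔIEC replicate 3 and at 10.1 to 13.1 FPKM elsewhere. *Fdx2*, of the iron-sulfur list, was at 0.791 FPKM in Zfp90fl/fl replicate 1 and at 1.6 and 1.72 FPKM in Zfp90fl/fl replicates 2 and 3. Its Zfp90ΔIEC values of 1.07, 1.19 and 1.13 FPKM lay between. The libraries that stood apart were not the same for all of these genes, and no cause was tested.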
